A study of Mus musculus with 8 samples.

Results

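The enzymes that make and break down polyamines, and the proteins that control the first of them, were followed in mouse gastrocnemius muscle (GAS) after knockdown of *Mytho*. The set holds 10 genes, *Amd1*, *Amd2*, *Odc1*, *Smox*, *Sat1*, *Sms*, *Srm*, *Azin1*, *Oaz1* and *Paox*, of 22664 gene symbols on a Clariom S Mouse array with 22206 probe sets. A gene was taken by its symbol, and where several probe sets named it, the probe set with the highest mean of both group averages stood for it. *Amd1* and *Amd2* are named together by one probe set, so the 10 genes rest on 9 probe sets, and a further probe set names *Amd2* alone.

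The series compared 4 arrays of muscle that had received AAV carrying sh-RNA against *Mytho* (MYTHO-KD) with 4 arrays of muscle that had received AAV carrying a scramble sh-RNA (scramble). All mice were male C57/Bl6j, about 10 weeks old at injection and 22 weeks old at sampling, 12 weeks later. The viruses were injected into the muscle, sh-RNA *Mytho* in one leg and scramble in the contralateral leg, so both groups had been injected and had received AAV. The sh-RNA stood under the U6 promoter, which is not specific to muscle fibres. The table used here gives for each probe set the authors' average log2 signal of each group and its SD over the arrays, with no value of a single array. No per-array values, pairs of legs or outlying arrays could therefore be examined.

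Polyamines are small, positively charged molecules that bind nucleic acids and are needed for growth and translation. Ornithine decarboxylase makes putrescine, and S-adenosylmethionine decarboxylase supplies the aminopropyl groups with which spermidine synthase and spermine synthase lengthen putrescine to spermidine and then spermine. Breakdown runs through acetylation by *Sat1* and oxidation by *Paox*, or directly from spermine to spermidine by *Smox*, a gene of skeletal muscle known to be lowered by disuse and denervation.

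The sh-RNA target itself, listed as D230025D16Rik (chr8:105225145-105253053, mm10), averaged 7.71 ± 0.66 (log2, SD, n = 4) in MYTHO-KD and 10.02 ± 0.37 in scramble. It fell by 2.31 on the log2 scale, to 20.2% of scramble, with an adjusted p of 0.0138 in limma's moderated test. If the averages are plain means, no single array of 4 can lie more than 1.5 SD from its average, which puts every MYTHO-KD array at or under 8.70 and every scramble array at or above 9.46 for this gene, so the groups cannot overlap. That held for 509 of 22206 probe sets (2.29%) and for none of the 9 polyamine probe sets.

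*Amd1* and *Amd2*, which encode S-adenosylmethionine decarboxylase, were the polyamine genes that moved most. Their shared probe set (chr10:40287458-40302188, minus strand, the span of *Amd1*) averaged 16.81 ± 0.88 (log2, SD, n = 4) in MYTHO-KD and 18.34 ± 0.17 in scramble. It fell by 1.53 on the log2 scale (SE 0.349, 95% interval -2.29 to -0.77), to 34.6% of scramble (95% interval 20.4 to 58.7), a 2.89-fold lower signal. This was the difference ranked 13 from the lowest of 22206. The unadjusted p was 9.12e-04 and the adjusted p 0.100 in limma's moderated test, so the change passed the threshold used here, at least 2-fold with an unadjusted p under 0.05, but not an adjusted p of 0.05. Across 8 ways of fitting or filtering, the unadjusted p ranged from 9.12e-04 to 0.0376 and the adjusted p from 0.0872 to 0.532. Taken as plain means, MYTHO-KD arrays could reach 18.13 at most and scramble arrays 18.09 at least, so any overlap of the groups is limited to that narrow band.

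The probe set naming *Amd2* alone (chr10:35708691-35711891, minus strand) gave a difference of the same size. It averaged 14.09 ± 0.91 in MYTHO-KD and 15.69 ± 0.17 in scramble (log2, SD, n = 4), and fell by 1.60 on the log2 scale (95% interval -2.38 to -0.82), to 33.0% of scramble. The unadjusted p was 7.97e-04 and the adjusted p 0.0972 in limma's moderated test. *Amd2* is a copy of *Amd1* that lies elsewhere on the same chromosome, and the array cannot tell how much of either signal comes from which gene where the copies share sequence. These probe sets are therefore not independent measurements.

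The upstream sequences of the genes lower in MYTHO-KD were read from RefSeq (GRCm38.p6), which gave 10 promoters for 8 of the 10 genes and none for *Azin1* and *Srm*. The 250 bases before the annotated start are shown, 5′ to 3′ on the gene's strand, for the called pair *Amd1* (chr10:40302189-40302438, minus strand) and *Amd2* (chr10:35711892-35712141, minus strand), and for *Smox* (chr2:131491612-131491861, plus strand) and the second of the annotated starts of *Sms* (chrX:157492288-157492537, minus strand). Capitals mark a match to a searched motif.
Amd1: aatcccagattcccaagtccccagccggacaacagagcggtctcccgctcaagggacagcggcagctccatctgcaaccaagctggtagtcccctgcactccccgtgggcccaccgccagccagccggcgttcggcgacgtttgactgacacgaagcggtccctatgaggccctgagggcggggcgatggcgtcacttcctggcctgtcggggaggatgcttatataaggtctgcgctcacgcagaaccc
Amd2: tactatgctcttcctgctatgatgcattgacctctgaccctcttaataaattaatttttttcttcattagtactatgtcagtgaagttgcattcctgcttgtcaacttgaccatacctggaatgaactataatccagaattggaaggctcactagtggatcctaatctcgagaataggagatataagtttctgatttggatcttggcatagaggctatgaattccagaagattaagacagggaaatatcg
Smox: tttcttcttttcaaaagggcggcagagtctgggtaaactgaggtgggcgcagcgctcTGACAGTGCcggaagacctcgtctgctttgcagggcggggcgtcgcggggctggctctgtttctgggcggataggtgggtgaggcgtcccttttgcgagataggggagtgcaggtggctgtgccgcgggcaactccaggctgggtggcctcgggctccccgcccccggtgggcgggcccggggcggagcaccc
Sms: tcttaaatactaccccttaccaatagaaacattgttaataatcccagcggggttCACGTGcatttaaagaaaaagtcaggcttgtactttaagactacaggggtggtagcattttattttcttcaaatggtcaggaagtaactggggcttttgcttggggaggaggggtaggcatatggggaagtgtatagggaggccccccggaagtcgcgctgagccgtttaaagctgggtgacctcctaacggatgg
The *Amd1* and *Amd2* upstream sequences had little in common. Aligned without gaps from the start, they were identical at 64 of 250 positions (25.6%), their longest shared run was 7 bases (cttcctg), and G and C made up 64.4% of the first and 37.6% of the second.

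3 motifs were searched on both strands of these 250 bases. They were CACGTG (the E-box bound by MYC and other factors, in 6.02% of all 32851 promoters of that length), GTAAACA (a FoxO motif, in 3.17%) and TGACNNNGC (an NRF2 motif, in 10.2%). *Smox* held an NRF2 motif 193 bases before the start, *Sms* an E-box 196 bases before the start shown and none of the motifs before its other annotated start (chrX:157491369-157491618), and *Oaz1* an NRF2 motif 13 bases before the start. *Amd1*, *Amd2*, *Odc1*, *Sat1* and *Paox* held none of the searched letters in this window. These matches are descriptions of sequence, and none is evidence that a factor binds.

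*Odc1*, which encodes ornithine decarboxylase, the enzyme that makes putrescine, averaged 11.99 ± 0.61 in MYTHO-KD and 12.32 ± 0.06 in scramble (log2, SD, n = 4; chr12:17544873-17551502). The difference of -0.33 (95% interval -0.90 to 0.24) did not pass the test, with an adjusted p of 0.680 in limma's fit, and the interval includes both a loss of nearly 1 log2 unit and a small gain. *Srm*, spermidine synthase, averaged 7.88 ± 0.17 in MYTHO-KD and 7.75 ± 0.28 in scramble (chr4:148591503-148599771), a difference of 0.13 (95% interval -0.27 to 0.53). Neither the first step nor spermidine synthase thus showed a difference beyond the spread between arrays.

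*Sms*, which encodes spermine synthase (chrX:157443855-157492287), averaged 12.12 ± 0.61 in MYTHO-KD and 12.89 ± 0.13 in scramble (log2, SD, n = 4). It was lower by 0.77 on the log2 scale (SE 0.263, 95% interval -1.34 to -0.20), at 58.6% of scramble, with an unadjusted p of 0.0128 and an adjusted p of 0.267 in limma's moderated test. It stayed short of 2-fold, and with unequal variances in place of the moderated SD its unadjusted p was 0.0831.

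Neither regulator of ornithine decarboxylase in the set reached 2-fold. *Azin1*, the antizyme inhibitor that frees ornithine decarboxylase from antizyme (chr15:38487430-38519266), averaged 12.77 ± 0.36 in MYTHO-KD and 12.24 ± 0.16 in scramble. It was the one member higher with an unadjusted p under 0.05, by 0.53 on the log2 scale (SE 0.199, 95% interval 0.10 to 0.96), at 144% of scramble. The unadjusted p was 0.0208 and the adjusted p 0.320 in limma's moderated test, and with unequal variances the unadjusted p was 0.0527. *Oaz1*, the antizyme that binds ornithine decarboxylase and sends it to the proteasome, averaged 16.13 ± 0.09 in MYTHO-KD and 15.93 ± 0.11 in scramble (chr10:80826656-80829290). Its difference of 0.20 (95% interval -0.13 to 0.53) had an adjusted p of 0.660 in limma's fit. The *Oaz1* probe set also names *Oaz1-ps* and *Mir1982*. Its SDs were the smallest of the 9 probe sets in MYTHO-KD, and in a fit without moderation its unadjusted p was 0.0306.

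Of the breakdown enzymes, *Smox*, spermine oxidase (chr2:131491496-131525922), averaged 14.96 ± 0.86 in MYTHO-KD and 15.83 ± 0.27 in scramble (log2, SD, n = 4). It was lower by 0.87 on the log2 scale (SE 0.350, 95% interval -1.63 to -0.11), at 54.7% of scramble (95% interval 32.2 to 93.0), with an unadjusted p of 0.0290 and an adjusted p of 0.347 in limma's moderated test. The unadjusted p was 0.102 without moderation and 0.134 with unequal variances. *Sat1*, which acetylates spermidine and spermine (chrX:155213132-155216449), averaged 10.57 ± 0.30 in MYTHO-KD and 10.25 ± 0.29 in scramble, a difference of 0.32 (95% interval -0.13 to 0.77). *Paox*, which oxidises the acetylated polyamines (chr7:140115899-140134334), averaged 5.58 ± 0.45 in MYTHO-KD and 5.26 ± 0.28 in scramble, a difference of 0.32 (95% interval -0.19 to 0.83). Neither of the latter passed the test, with adjusted p of 0.590 for *Sat1* and 0.653 for *Paox* in limma's fit. All 10 genes were marked as expressed in both groups, but so were 21222 of all 22206 probe sets, so the mark separates little. Both averages of *Paox* lay under 5.715, the 30th percentile used as the limit for dim probe sets.

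**Figure D1:**
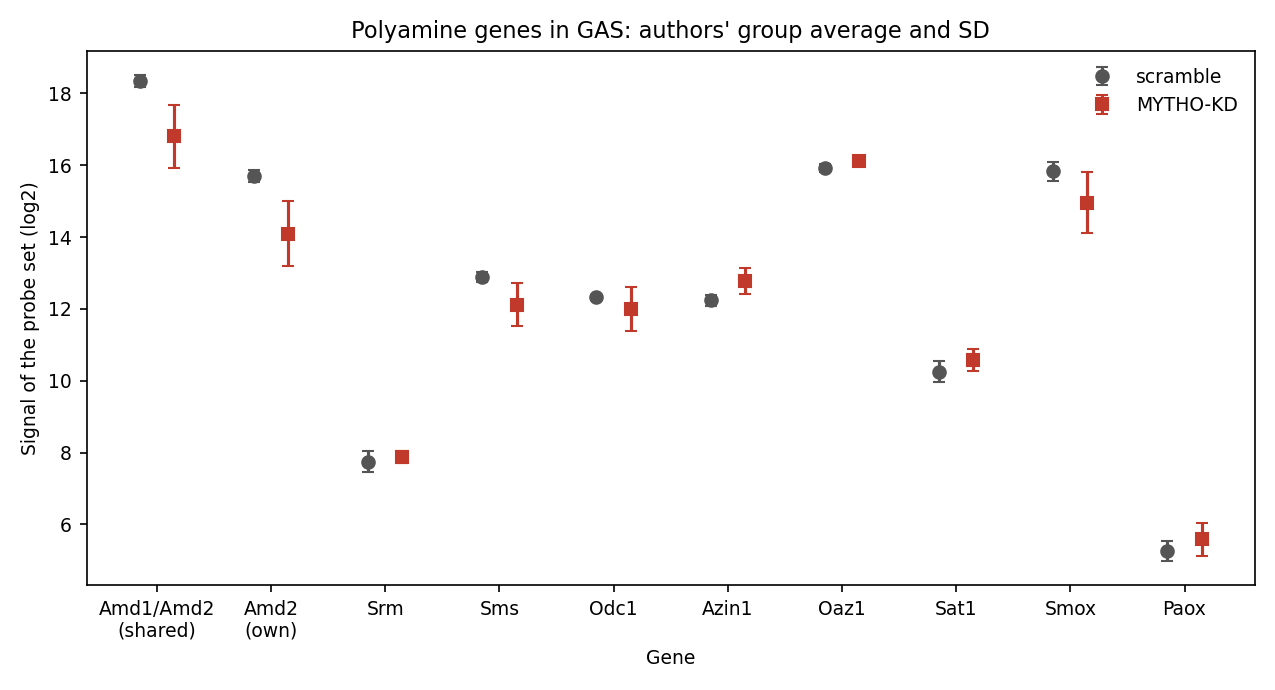
Average log2 signal of each polyamine probe set in scramble (grey circles) and MYTHO-KD (red squares), 4 arrays each, with bars for the SD over the arrays. The shared probe set of Amd1 and Amd2 went from 18.34 to 16.81, and its bar is wider in MYTHO-KD (0.88) than in scramble (0.17). Heights of different probe sets are not comparable as transcript amounts.

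Of the 10 genes, 2 were called lower and 0 higher at 2-fold and an unadjusted p under 0.05, both on the one shared probe set. Over all probe sets 0.257% were called lower and 0.860% higher. At an unadjusted p under 0.05 alone, 4 genes on 3 probe sets were lower (*Amd1*, *Amd2*, *Smox* and *Sms*) and 1 was higher (*Azin1*), beside 5.52% of all probe sets lower and 6.48% higher. These genes all averaged above 12 in both groups, where such differences were more frequent. Of the 1679 probe sets with a mean signal of 12 or more, 203 were lower and 205 higher at that p in limma's fit (24.3% in all). Of the same 1679, 23 were called lower and 30 higher at 2-fold. At an adjusted p under 0.05 (limma) 0 of the 10 genes were left, beside 0.0946% of all probe sets lower and 0.180% higher. Of the 9 probe sets, 5 were higher and 4 lower in MYTHO-KD, with a median difference of 0.13 against -0.01 over all probe sets, so the members did not move one way as a set. In a bulk muscle sample, a lower share of the cells that express a gene and less RNA of it per cell cannot be told apart.

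**Figure D2:**
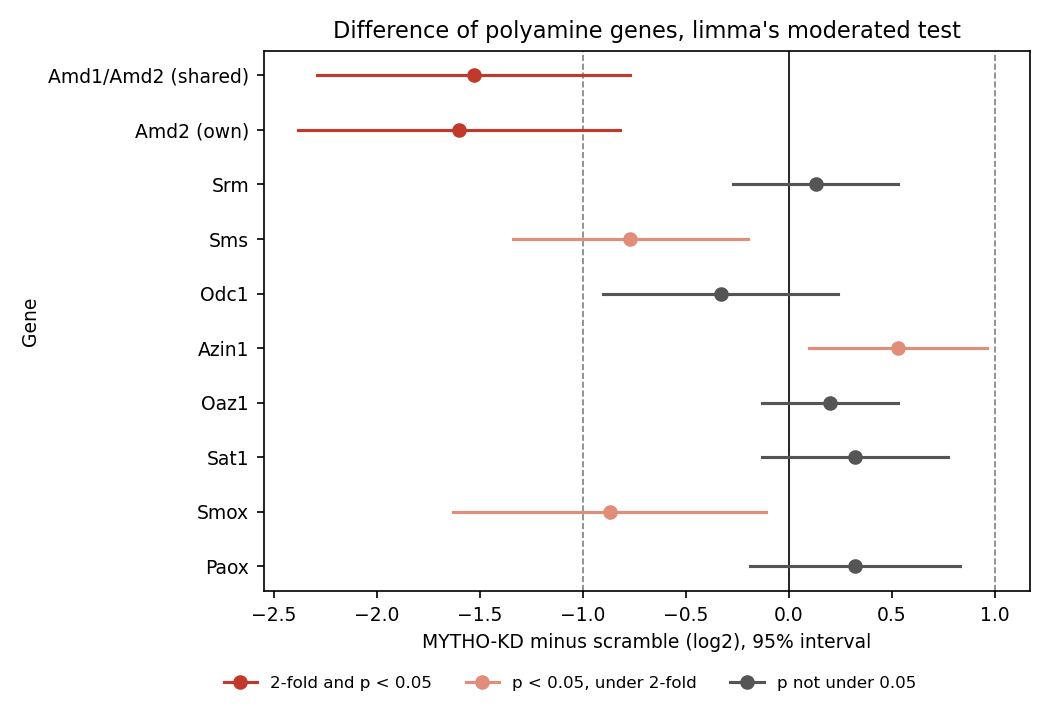
Difference of each polyamine probe set, MYTHO-KD minus scramble (log2), with its 95% interval from limma's moderated test. Dark red marks at least 2-fold with p under 0.05, light red p under 0.05 only, grey neither, and dashed lines 2-fold. The intervals of both Amd probe sets, Sms and Smox lie under 0 and that of Azin1 lies above 0.

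The spread between MYTHO-KD arrays was wide in several of these genes. *Odc1* had an SD 10.2 times that of scramble, the shared *Amd1* and *Amd2* probe set 5.18 times, *Sms* 4.69 times and *Smox* 3.19 times, while *Azin1* stood at 2.25, *Paox* at 1.61, *Sat1* at 1.03, *Oaz1* at 0.818 and *Srm* at 0.607. An SD at least 3 times higher in MYTHO-KD was found in 4 of 9 polyamine probe sets (44.4%), against 6.63% of 22185 probe sets with SDs above 0 and 7.90% of the 1659 of these with a mean signal of 12 or more. The same held for 10 of the 57 probe sets called lower (17.5%) and 23 of the 191 called higher. The 3-fold limit was set after the values were seen, and no test was made of the members' share. A ratio as high as that of *Odc1* occurred in 56 probe sets (0.252%), and one as high as that of *Amd1* in 339 (1.53%). The median SD of the 9 probe sets was 0.450 in MYTHO-KD and 0.170 in scramble, whereas over all probe sets it was 0.270 in both groups. Of the 13 probe sets with a difference at or below that of *Amd1*, 3 had an SD ratio of 3 or more, and 2 of these 3 were the *Amd* probe sets. For *Odc1* the SDs stood far apart while the averages did not pass the test, and for *Amd1* and *Amd2* both average and SD differed. Whether the same arrays were low in *Amd1*, *Odc1*, *Sms* and *Smox* was not tested, because the arrays were given as averages.

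**Figure D3:**
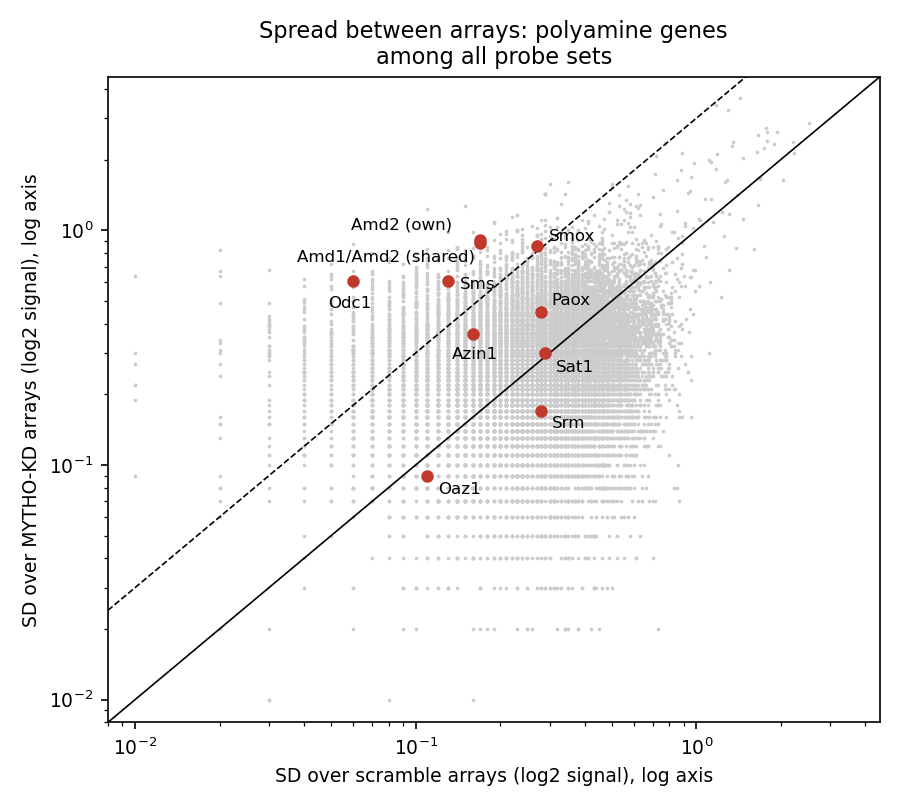
SD over the 4 scramble arrays against SD over the 4 MYTHO-KD arrays for all probe sets with SDs above 0 (grey) and the polyamine probe sets (red), both axes logarithmic. The solid line marks equal SDs and the dashed line an SD 3 times higher in MYTHO-KD. Odc1, both Amd probe sets, Sms and Smox lie above the dashed line, while Oaz1 and Srm lie under the solid one.

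A wider list of 38 genes around the pathway was read in the same fit, and none was called in either direction at 2-fold with limma's moderated test. At an unadjusted p under 0.05, 3 were higher and 3 lower, 15.8% with both directions together. Of all 22206 probe sets, 2664 passed that p with both directions together, 6.48% being higher and 5.52% lower. After adjustment 0 of the 38 passed, and their median difference was -0.045, against -0.01 over all probe sets. The lowest p was that of *Mtap*, in methionine salvage, followed by *Slc7a2*, in transport, and *Oaz2*, a regulator. *Mtap*, which salvages the methylthioadenosine released as spermidine and spermine are made, averaged 9.29 ± 0.48 in MYTHO-KD and 10.19 ± 0.23 in scramble, lower by 0.90 (95% interval -1.42 to -0.38), at 53.6% of scramble, with an unadjusted p of 0.00254 and an adjusted p of 0.153 in limma's fit. *Enoph1*, a later enzyme of the same salvage route, was lower by 0.40 (limma adjusted p of 0.393). Of the 9 genes of the methionine cycle and salvage, 6 were lower and 3 higher, with a median of -0.22.

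*Slc7a2*, which carries arginine and ornithine into cells, averaged 10.13 ± 0.50 in MYTHO-KD and 10.90 ± 0.09 in scramble, lower by 0.77, with an adjusted p of 0.200 in limma's fit. Its SD ratio of 5.56 placed it among 2 genes of the 38 with a ratio of 3 or more, the other being *Aldh18a1* (difference -0.03), named here for that ratio after its values were seen. The SDs of *Aldh18a1* were 0.18 in MYTHO-KD and 0.06 in scramble, both under the median SD of 0.270 over all probe sets. *Slc18b1*, a vesicular polyamine carrier, averaged 7.94 in MYTHO-KD and 7.30 in scramble (difference 0.64, limma adjusted p of 0.312), and *Slc47a1*, an exporter of organic cations, 8.25 and 7.66 (0.59, limma adjusted p of 0.402). *Slc3a2* and *Atp13a3*, a polyamine transporter of endosomes, each differed by -0.38, with limma adjusted p of 0.421 and 0.444. Of the 13 transport genes 10 were lower and 3 higher, with a median of -0.17.

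Among the other regulators, *Oaz2*, a second antizyme, averaged 10.19 ± 0.23 in MYTHO-KD and 9.58 ± 0.37 in scramble, higher by 0.61 (95% interval 0.15 to 1.07), with an unadjusted p of 0.0132 and an adjusted p of 0.268 in limma's fit. The 4 genes of eIF5A and its hypusine modification, which is made from spermidine, were higher by 0.11 to 0.26, and none passed the test. The 4 other breakdown genes had a median of 0.02 and the 4 genes of ornithine supply a median of -0.005, and none of these 8 had an unadjusted p under 0.05.

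**Figure D4:**
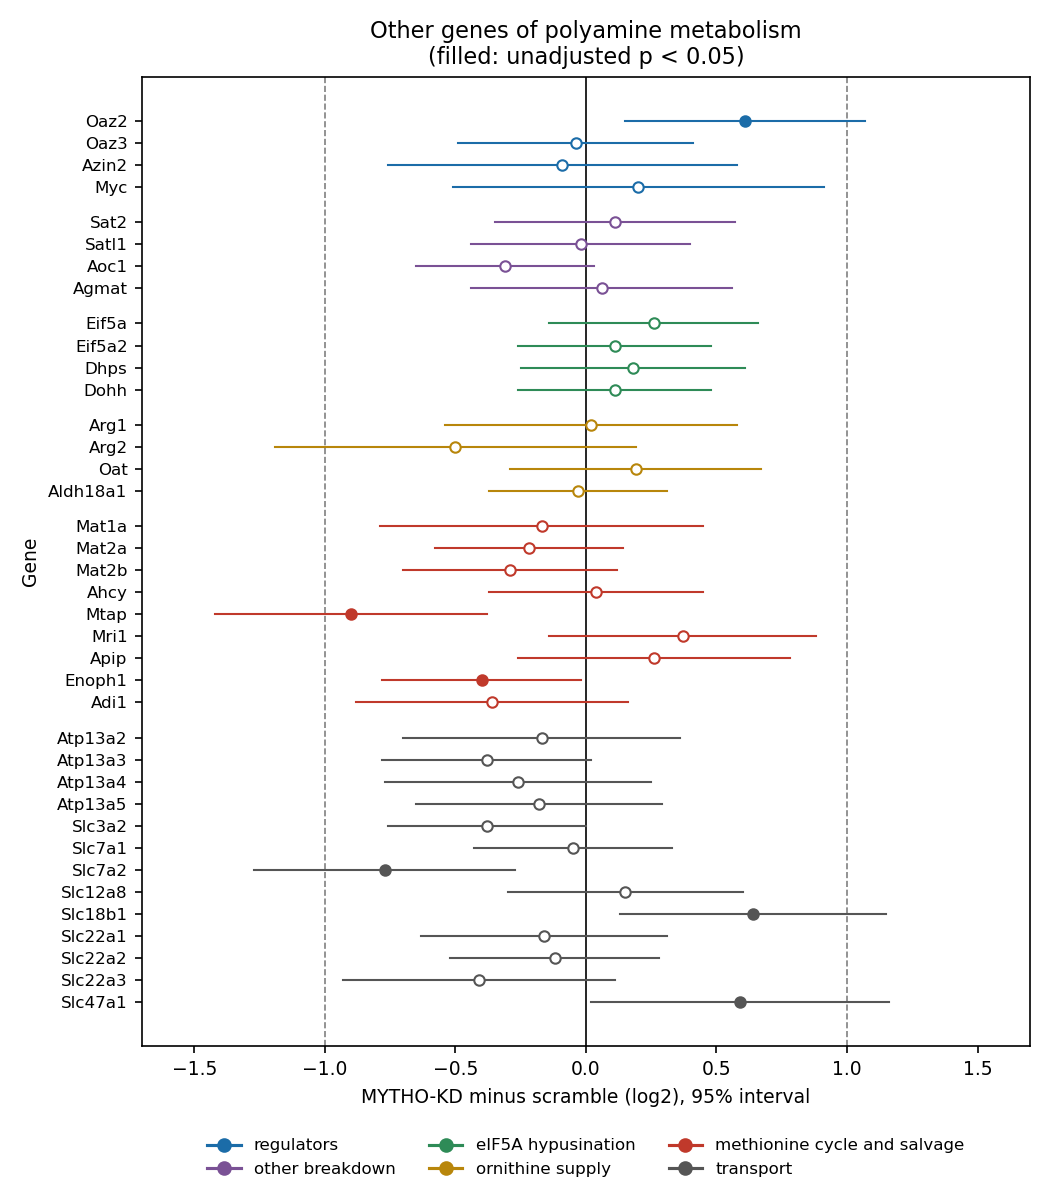
Difference of each of the 38 genes around the pathway, MYTHO-KD minus scramble (log2), with its 95% interval, coloured by role, filled where the unadjusted p was under 0.05 in limma's fit, and with dashed lines at 2-fold. All 38 differences lie between -0.90 (Mtap) and 0.64 (Slc18b1), and none reaches 2-fold.

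Several lists of markers of other cells were higher in the same samples, where 0.860% of all probe sets were called higher and 0.257% lower. Of 10 macrophage genes, 10 were higher in MYTHO-KD and 3 were called, led by *Cd68* (difference 2.53) and *Lyz2* (1.94), and their summed signal went from 11.02 in scramble to 12.27 in MYTHO-KD (log2). Of 8 fibroblast genes, 8 were higher and 4 called, led by *Bgn* (1.94) and *Lum* (1.49). Their summed signal of 16.67 in scramble and 17.06 in MYTHO-KD was close to that of *Dcn* alone (16.58 and 16.86), so it says little of the other genes. *Dcn* (0.28) and *Pdgfra* (0.18) were not called. The 6 endothelial genes, the 4 blood probe sets and the 6 liver genes were also all higher, with 1 call, *Alb*, and the 5 lymphocyte genes were all lower with none. Of 6 regeneration genes, 4 were higher and 1 lower, with a median difference of 0.195. Among them *Tmem8c* (now *Mymk*) and *Myh3* were called higher, by 1.77 and 1.27, with limma adjusted p of 0.0749 and 0.366. The SD of *Myh3* was 1.28 in MYTHO-KD and 0.63 in scramble. *Pax7* (0.18), *Myog* (0.21) and *Myod1* (-0.40) were not called, and *Myh8* was listed at 19.93 in both groups. That is the highest average of any probe set, with an SD of 0.00 in both groups. A rise of *Myh8* could therefore not be seen, although its difference is counted in the median. No marker averaged 0 in either group, but neither did any other probe set, the lowest average of all being 3.18 (log2). An average above 0 therefore does not show that a marker's cells were present. Of 10 fast fibre genes none was called, 2 were higher and 5 lower, and the median difference was -0.015. Their summed signal was 22.78 in scramble and 22.76 in MYTHO-KD, but their averages (17.58 to 19.93) reached the highest value of the table. *Acta1*, *Myh4* and *Atp2a1* stood at 19.93 with an SD of 0.00 in both groups. A rise of these genes could not be seen, although they count in the median and the sum. *Myh1* was higher by 0.59, with an unadjusted p of 0.00873 and an adjusted p of 0.230 in limma's fit. The part of the cells marked by these lists in the polyamine differences was not tested.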

How the data were processed

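RNA from 8 GAS muscles, 4 a group, was hybridised to Clariom S Mouse arrays. The study's methods name SST-RMA in the Transcriptome Analysis Console, whereas the submitters' processing notes name Affymetrix Expression Console, RMA and mm10. The deposited table of 28 columns holds the authors' group averages of log2 signal, the SDs and flags for expressed probe sets, with 0 columns of single arrays. Its columns of fold changes, p-values and FDR are the authors' own comparison and were not used. Whether an average is a plain mean or a robust one is not given in the sources used here, and p-values assume a plain mean.

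Differences were tested with limma 3.58.1 in R 4.3.3 (squeezeVar on the pooled variances, prior SD 0.284, prior df 5.85, residual df 6, two-sided, Benjamini-Hochberg over 22206 probe sets), after a check on simulated data. The simulated arrays had the same SD in both groups and no pairing, so the check does not cover genes with unequal SDs or paired legs. A call needed at least 2-fold and an unadjusted p under 0.05. For 21 probe sets a group's SD was 0. The legs were contralateral, but group averages allow no pairing, and p-values measure the spread between these arrays. Named were all 10 members, the sh-RNA target, wider-list genes called or among the 8 lowest p (and *Aldh18a1*, outside this rule, for its SD ratio), and leading genes of the marker lists, with some lists given as counts. All 6 regeneration genes and *Dcn*, *Pdgfra*, *Acta1*, *Myh4* and *Atp2a1* were named after their values were seen. Members and lists were chosen with earlier results of these data known. The bounds on single arrays and the 3-fold SD limit were added after the values were seen. Alternatives were a trended prior, no moderation, unequal variances, filters on dim or unexpressed probe sets, 1 probe set a symbol and other thresholds.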

Additional observations from a re-analysis of the deposited data

How the results depend on the processing

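No paired analysis was possible because the table gives group averages and no single arrays, and for the same reason no array could be left out. The 57 probe sets called lower became 500 at 1.5-fold, 19 at 2-fold with an adjusted p under 0.05, and 1225 at an unadjusted p under 0.05 alone, and the 191 called higher became 787, 38 and 1439. Among the polyamine genes, the 2 called lower became 4 at 1.5-fold, 0 with the adjusted p and 4 with the unadjusted p alone, and the 0 called higher became 1 with the unadjusted p alone. On the wider list, 0 called lower became 2 at 1.5-fold and 3 with the unadjusted p alone, and 0 called higher became 3 and 3. Under the other fits and filters 48 to 57 probe sets were called lower and 153 to 191 higher. Counts at an adjusted p under 0.05 went from 61 to 2 without moderation, 2 with unequal variances, 189 with a trended prior and 78 without dim probe sets. Every alternative used the same group averages, so apart from the choice of *Amd2* probe set the direction of a member could not change. *Paox* was left out by the filter at the 30th percentile (5.715 on the log2 scale). The 95% intervals of *Odc1* (-0.90 to 0.24), *Smox* (-1.63 to -0.11) and *Sms* (-1.34 to -0.20) come from limma's moderated fit. That fit takes the same variance for both groups, whereas the SDs of these genes differed between the groups. With unequal variances the unadjusted p was 0.359 for *Odc1*, 0.134 for *Smox* and 0.0831 for *Sms*.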
